A study of Mus musculus with 6 samples.

Results

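The genes described here are 10 genes of alkylation and base excision repair, chosen by symbol from 30236 gene rows of a liver tumor RNA-seq table: Mgmt, Alkbh2, Alkbh3, Mpg, Ung, Ogg1, Apex1, Polb, Xrcc1 and Lig3. All 10 were present, and all 10 lay above the filter on low values. The samples were hepatocellular carcinomas of male C57BL/6 mice, 3 of WT and 3 of Top1mt -/- (KO) littermates, whose missing gene encodes the type IB topoisomerase of mitochondria. Mice of both genotypes received diethylnitrosamine on day 14 and carbon tetrachloride from week 8 for 14 weeks, and tumors were removed at 22 weeks. The knockout was carried in all cells, not in hepatocytes alone, and the comparison is of tumors with tumors, with no liver without carcinogen. The question put to these genes is whether their transcripts differed between tumors with and without Top1mt.

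Diethylnitrosamine is converted by liver cytochromes P450 into a species that ethylates DNA, and mammalian cells remove alkylated bases by separate routes. In direct reversal, MGMT takes the alkyl group from the oxygen of guanine onto its own cysteine and is used up, while the dioxygenases ALKBH2 and ALKBH3 oxidise alkyl groups away from the base-pairing nitrogens of adenine and cytosine. In base excision repair, a glycosylase cuts out the damaged base (MPG for alkylated purines, OGG1 for oxidised guanine, UNG for uracil), APEX1 cuts the strand at the empty site, POLB fills the gap, and LIG3 seals it while bound to the scaffold XRCC1. LIG3 is also the DNA ligase of mitochondria, the compartment in which TOP1MT works.

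The values are log2 expression values per gene, normalized between libraries by the authors, and differences were tested with limma over 22677 genes. Top1mt itself stood at 7.71, 5.99 and 8.01 in the libraries with the WT label (replicates 1 to 3) and at 5.58, 6.41 and 6.32 in those with the KO label, so WT replicate 2 went against its label and every direction below rests on the labels. In KO replicate 1 the transcript Gm42418 stood at 22.0, against 15.8 at most elsewhere. It made up 17.7% of the summed linear values of that library and 0.39% at most of any other. Lars2 also stood apart in KO replicate 1, at 20.1 against 12.7 at most elsewhere. With WT replicate 2 and KO replicate 1 left out, a check added after the data were seen, the median log2 fold change of the 10 genes was 0.043, against 0.074 with all 6. Of the 6 hepatocyte markers listed, 5 were in the table, and their summed level (the log2 of the sum of linear values) was 20.6 to 21.3 in WT and 20.8 to 21.4 in KO. Alb dominated that sum (20.3 to 21.1 over the 6 libraries). Of the 5, 2 had a higher and 3 a lower mean in KO, with 1 of them, Ttr, above WT in KO without overlap. Bile duct and progenitor markers (5) summed to 11.6 to 12.6 in WT and 11.7 to 12.6 in KO, a sum that Spp1 dominated (11.3 to 12.6 over the 6 libraries). Among these 5, Krt19 (log2 fold change -2.68) and Epcam (-1.19) were below WT in KO without overlap, Krt7 (-2.20) was lower with overlap, and Sox9 (0.15) and Spp1 (0.045) had slightly higher means. Macrophage (12.1 to 13.0 against 12.0 to 12.7), stellate and fibroblast (12.7 to 14.3 against 11.8 to 14.0), endothelial (12.6 to 12.9 against 12.8 to 13.0), T cell (4.66 to 5.30 against 4.78 to 5.10) and B cell marker sums (6.57 to 6.84 against 6.16 to 7.76) overlapped between WT and KO. All 5 endothelial markers had a higher mean in KO, and Cdh5 and Pecam1 did so without overlap. Of the 4 T cell markers, Cd3e was below and Cd3g above WT in KO without overlap. Lrat, a stellate cell gene, had a log2 fold change of -0.79 with groups that overlapped. By limma, Krt19, Krt7, Lrat and Cdh5 were the markers with an unadjusted p under 0.05, and 0 markers passed after adjustment. Over all genes tested, 4.34% had an unadjusted p under 0.05 by limma, and 8.28% had groups that did not overlap. Ttr was apart only narrowly (16.374 at most in WT, 16.383 at least in KO). So was Epcam (5.223 at least in WT, 5.216 at most in KO). The part of these markers in the values below was not tested. No marker of these lists was at or below 0 in every library. In such bulk tissue, fewer cells of a type and less RNA per cell cannot be told apart.

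The promoters of 3 genes are shown because they bear on how these genes are laid out and read. In the GENCODE M21 annotation of GRCm38, Alkbh2 (chr5:114123926-114128218, minus strand) and Ung (chr5:114130386-114139323, plus strand) point away from each other with 2167 bases between their start sites, so that a gene of direct reversal and a gene of base excision share 1 stretch of upstream DNA. Mgmt (chr7:136894614-137130266, plus strand) shares no exon base with another gene, and methylation of its CpG-rich promoter is a known way in which tumors silence it. The RefSeq windows (GRCm38.p6, 300 bases each, across the start site) read 5′ to 3′ as follows, with every GC box (GGGCGG, or CCGCCC on the other strand) in capitals.
Alkbh2, chr5:114128169-114128468: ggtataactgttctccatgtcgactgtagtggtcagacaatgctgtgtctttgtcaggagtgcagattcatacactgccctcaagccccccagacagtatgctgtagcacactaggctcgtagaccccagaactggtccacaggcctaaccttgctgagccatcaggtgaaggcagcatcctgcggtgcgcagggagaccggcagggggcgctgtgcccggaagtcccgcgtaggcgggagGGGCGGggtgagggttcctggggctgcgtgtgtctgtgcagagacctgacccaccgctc
Ung, chr5:114130185-114130484: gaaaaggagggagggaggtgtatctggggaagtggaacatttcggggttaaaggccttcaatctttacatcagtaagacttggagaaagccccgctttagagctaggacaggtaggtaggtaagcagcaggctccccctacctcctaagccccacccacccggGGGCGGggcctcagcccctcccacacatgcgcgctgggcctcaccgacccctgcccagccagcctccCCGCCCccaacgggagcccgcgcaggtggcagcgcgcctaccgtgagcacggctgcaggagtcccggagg
Mgmt, chr7:136894336-136894635: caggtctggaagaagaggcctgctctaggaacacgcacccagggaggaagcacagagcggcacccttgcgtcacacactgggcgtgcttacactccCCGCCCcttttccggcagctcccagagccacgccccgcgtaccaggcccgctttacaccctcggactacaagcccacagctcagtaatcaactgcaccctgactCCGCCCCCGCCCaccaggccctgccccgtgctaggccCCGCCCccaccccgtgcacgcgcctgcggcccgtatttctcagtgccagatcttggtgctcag
The Mgmt window shown held 4 GC boxes, the Ung window 2 and the Alkbh2 window 1. Another RefSeq window of Mgmt, chr7:136912848-136913147, is not shown and held 0 GC boxes and 3 CpG pairs. Of 32851 mouse promoter windows, 35.7% held at least 1 GC box on either strand. Windows with as many as 4 made up 5.49% of all. The Mgmt window shown held 20 CpG pairs, the Ung window 16 and the Alkbh2 window 13, against a median of 7. Windows with as many CpG pairs or more made up 26.5%, 33.0% and 37.9% of all, in the same order. Of the 10 genes 9 matched the RefSeq promoter table, and 7 of these had a GC box in at least 1 window. The letters are a description of these windows and say nothing of which factors bind there in the tumors.

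By its own test on counts, the paper lists genes as differentially expressed between the tumor genotypes. That test could not be run on the deposited values, so the results below, including those over all genes, are limma's. None of the 10 genes showed a genotype difference larger than the spread between tumors. The number with an adjusted p under 0.05 was 0 of 10 by limma (0.0% of all genes tested). At an unadjusted p under 0.05 the count was also 0 of 10, where 4.34% of all genes passed, 1.79% with a higher and 2.56% with a lower mean in KO. The WT and KO ranges overlapped in all 10 genes, while 8.28% of all genes tested had groups that did not overlap, 3.95% with KO above and 4.33% with KO below WT. The mean was above WT in KO for 7 genes and below it for 3, against 47.7% of all genes with a higher mean in KO. The median log2 fold change of the 10 was 0.074, and over all genes tested it was -0.015. The median absolute log2 fold change was 0.11, against 0.21 over all genes, and 8 of the 10 genes lay under that second value. These medians are not matched for level. The 10 genes ran from 5.23 to 9.38 over the libraries, while the genes tested went down to a mean of -0.889. Over the 15118 genes with a mean above the median level, the median absolute log2 fold change was 0.17. The 95% intervals show how much could have been missed: 7 of the 10 lay within a change of 2-fold in either direction, and their half-widths ran from 0.35 for Lig3 to 0.93 for Alkbh2.

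**Figure D1:**
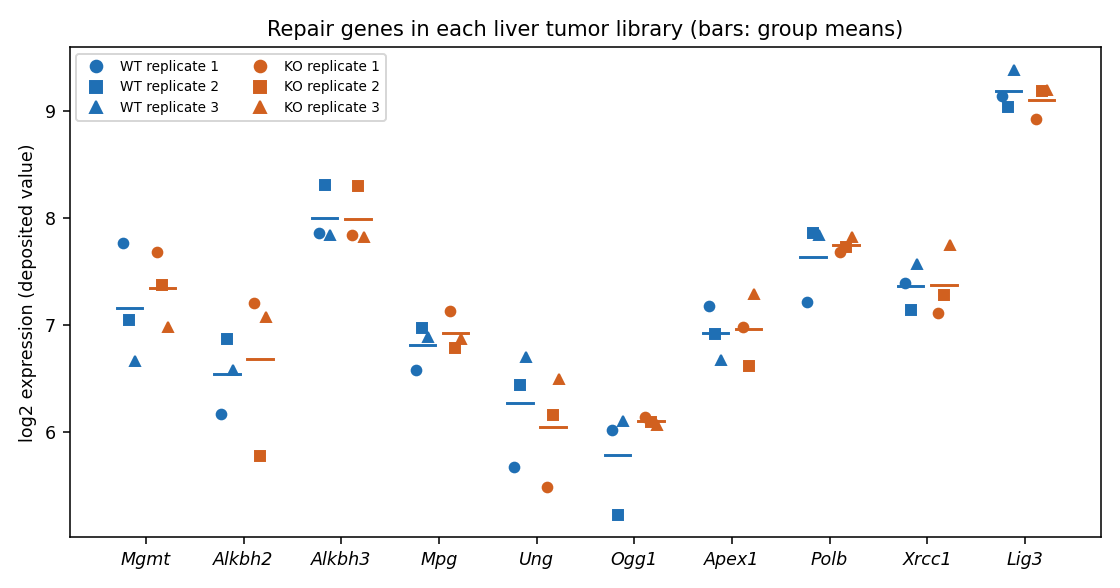
Deposited log2 expression of the 10 repair genes (y axis) in each tumor library, WT in blue and KO in orange, with the replicate number given by the symbol and group means as bars. Blue and orange overlap in every gene, and Alkbh2 (5.78 to 7.21) and Ung (5.49 to 6.70) are among the most spread.

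Among the genes of direct reversal, Mgmt had log2 levels of 7.77, 7.04 and 6.67 in WT replicates 1, 2 and 3 and of 7.68, 7.38 and 6.98 in KO replicates 1, 2 and 3. Each genotype had 1 tumor near 7.7 and 1 under 7, and the KO tumors lay inside the WT range. WT averaged 7.16 ± 0.56 (SD, n = 3) and KO averaged 7.35 ± 0.35 (SD, n = 3), which gave a log2 fold change of 0.19 (standard error 0.32, 95% interval -0.54 to 0.92, limma's adjusted p = 0.999). Without WT replicate 3 this difference was -0.056, and without WT replicate 1 it was 0.49. No tumor lacked the transcript. Compared with the 2061 genes whose mean level lay within 0.5 of its own, the spread of Mgmt within groups was at percentile 81.7.

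Alkbh2, the dioxygenase that acts mainly on double-stranded DNA, measured 6.17, 6.87 and 6.58 in the WT tumors and 7.21, 5.78 and 7.07 in the KO tumors. KO held both the highest and the lowest library. The means were 6.54 ± 0.35 (SD, n = 3) and 6.69 ± 0.79 (SD, n = 3), with a log2 fold change of 0.15 (standard error 0.40, 95% interval -0.79 to 1.08, limma's adjusted p = 0.999). The difference became 0.60 without KO replicate 2 and -0.11 without KO replicate 1, so single tumors set both its size and its sign. Its within-group spread, an SD of 0.61, was at percentile 86.0 of 1683 genes of like level, the widest of the 10.

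Alkbh3, which acts on single-stranded DNA and on RNA, measured 7.85, 8.31 and 7.84 in the WT tumors and 7.84, 8.30 and 7.83 in the KO tumors. In each genotype the library numbered 2 stood near 8.30 and the other two between 7.83 and 7.85. The log2 fold change was -0.013 (standard error 0.21, 95% interval -0.49 to 0.46, limma's adjusted p = 0.999), and it became 0.0014 with quantile normalization. Alkbh1, the other family member listed, ran from 8.00 to 8.39 and also had its highest values in the libraries numbered 2, 8.34 in WT and 8.39 in KO. Whether the replicate numbers pair the mice is not given in the sources used here, so the shared number was not read further.

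**Figure D2:**
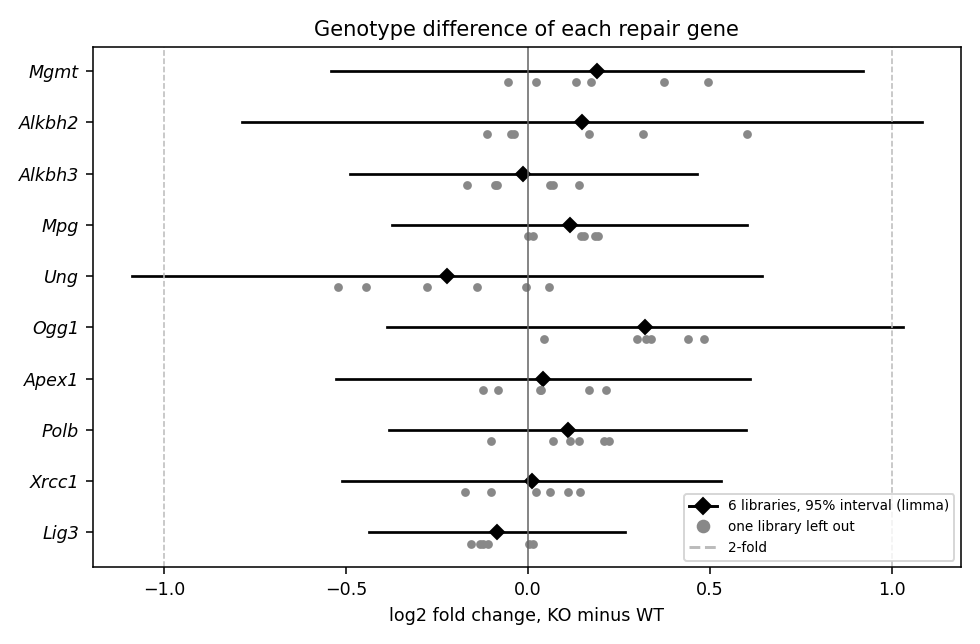
Log2 fold change of each repair gene, KO minus WT (x axis), with its 95% interval from limma as a line and the values with one library left out as grey points. Every interval crosses 0, and only those of Alkbh2, Ung and Ogg1 reach past the dashed lines at 2-fold.

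The glycosylases ranged in within-group spread from percentile 15.3 (Mpg) to 71.2 (Ung) among genes of like level. Mpg, which removes alkylated purines, measured 6.58, 6.97 and 6.89 in the WT tumors and 7.13, 6.79 and 6.87 in the KO tumors. Its log2 fold change was 0.11 (standard error 0.21, 95% interval -0.37 to 0.60, limma's adjusted p = 0.999). Its within-group SD of 0.19 was the lowest of the 10 for its level, among 1814 genes. The interval leaves room for a KO level between 0.77 and 1.52 times that of WT.

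Ogg1, which removes oxidised guanine, measured 6.02, 5.23 and 6.11 in the WT tumors and 6.15, 6.10 and 6.07 in the KO tumors. WT replicate 2 thus lay 0.86 below the median of the 6, and the other 5 fell between 6.02 and 6.15. The log2 fold change of 0.32 (standard error 0.31, 95% interval -0.39 to 1.03, limma's adjusted p = 0.999) was the largest of the 10 and had the smallest unadjusted p by limma, 0.33. Without WT replicate 2 it was 0.042. Mbd4, a glycosylase for thymine and uracil opposite guanine, was also lowest in that library, at 5.48 against 6.07 to 6.53 in the rest.

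Ung, which removes uracil, measured 5.68, 6.44 and 6.70 in the WT tumors and 5.49, 6.16 and 6.50 in the KO tumors. Both genotypes spanned about 1 unit on the log2 scale. The log2 fold change was -0.22 (standard error 0.37, 95% interval -1.09 to 0.64, limma's adjusted p = 0.999), and it came to 0.057 when KO replicate 1 was left out and to -0.52 when WT replicate 1 was. Ung has a nuclear and a mitochondrial form from 1 gene, which a value per gene cannot separate. Against its upstream neighbour, Ung was lowest in KO replicate 1, the library in which Alkbh2 was highest, and Alkbh2 was lowest in KO replicate 2, where Ung was 6.16, near its mean. Relative to each gene's mean, Alkbh2 and Ung were low together in WT replicate 1 only (-0.44 and -0.49). They were high together in WT replicate 2 (0.26 and 0.28) and in KO replicate 3 (0.46 and 0.33).

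**Figure D3:**
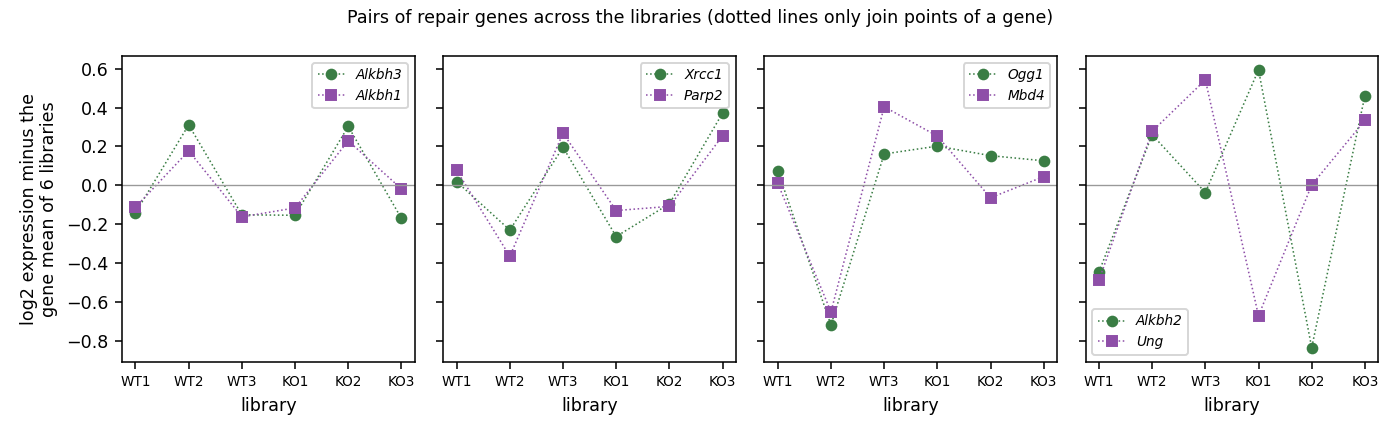
Log2 expression of 4 pairs of repair genes after subtracting each gene's mean of the 6 libraries (y axis), by library (x axis). Alkbh3 with Alkbh1, Xrcc1 with Parp2 and Ogg1 with Mbd4, pairs chosen as nearest in pattern, lie close in most libraries. Alkbh2 and Ung, chosen as neighbours, lie far apart in KO replicates 1 and 2. They lie close in WT replicates 1 and 2 and in KO replicate 3.

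None of the 4 genes that act after base removal lay above percentile 52.6 of spread for its level. Apex1, the main endonuclease for sites without a base, measured 7.18, 6.91 and 6.68 in the WT tumors and 6.98, 6.62 and 7.29 in the KO tumors. Its log2 fold change was 0.040 (standard error 0.25, 95% interval -0.53 to 0.61, limma's adjusted p = 0.999). It turned to -0.12 without KO replicate 3 and to -0.082 without WT replicate 3.

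Polb, the polymerase that fills the short gap and trims its sugar end, measured 7.21, 7.86 and 7.84 in the WT tumors and 7.68, 7.73 and 7.82 in the KO tumors. WT replicate 1 stood 0.57 below the median, and the other 5 libraries lay between 7.68 and 7.86. The log2 fold change was 0.11 (standard error 0.21, 95% interval -0.38 to 0.60, limma's adjusted p = 0.999), and -0.10 without WT replicate 1.

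Xrcc1, the scaffold, measured 7.39, 7.14 and 7.57 in the WT tumors and 7.11, 7.28 and 7.74 in the KO tumors, with means of 7.37 ± 0.21 (SD, n = 3) and 7.38 ± 0.33 (SD, n = 3). Its log2 fold change was 0.0096 (standard error 0.22, 95% interval -0.51 to 0.53, limma's adjusted p = 0.999). Lig3, its ligase partner, measured 9.13, 9.04 and 9.38 in the WT tumors and 8.93, 9.18 and 9.20 in the KO tumors. The log2 fold change of Lig3 was -0.085 (standard error 0.15, 95% interval -0.44 to 0.27, limma's adjusted p = 0.999), so a KO level below 0.74 or above 1.2 times that of WT lies outside its interval. It was 0.014 without WT replicate 3. Lig3 had the narrowest interval of the 10.

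Levels of different genes were compared per kilobase of annotated exon. On this scale the log2 levels over the 6 libraries ran from 6.46 ± 0.55 (SD, n = 6) for Alkbh2 to 3.71 ± 0.48 (SD, n = 6) for Ung, a 6.70-fold span. Next to Alkbh2 came Apex1 (6.44), Alkbh3 (6.34) and Lig3 (6.28), whose ranges overlapped. Mgmt (5.72) and Polb (5.71) followed, then Mpg (4.96), Xrcc1 (4.83) and Ogg1 (4.82). Of the 9 steps in this order, 1 had ranges that did not touch, the step from Polb to Mpg, and these all but met (lowest Polb 5.23, highest Mpg 5.22). Ung was below Ogg1 in 6 of 6 libraries, though the ranges touched through the low Ogg1 value of WT replicate 2. The other neighbours in the order had ranges that overlapped, though Lig3 was above Mgmt in 5 of 6 libraries, with a gap of 0.56 between their means.

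**Figure D4:**
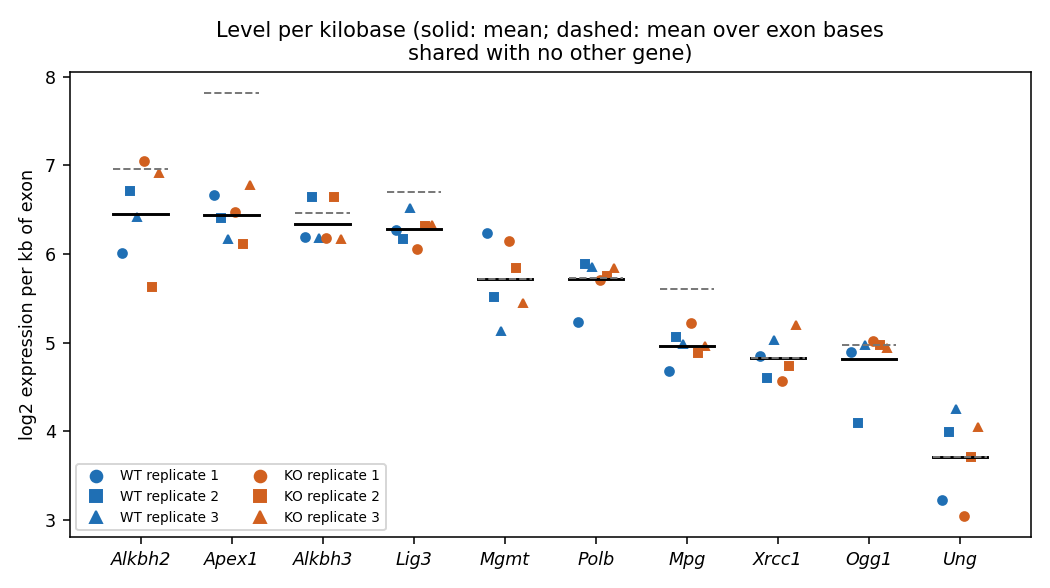
Log2 expression per kilobase of exon (y axis) of the 10 repair genes in order of their mean, with the libraries as symbols (WT blue, KO orange), the mean as a solid bar and the mean over exon bases shared with no other gene as a dashed bar. Apex1 moves most between the bars, from 6.44 to 7.82, and Ung is lowest on both.

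These levels have a limit that differs by gene, because several of the 10 share exon bases with a gene on the opposite strand. The share was 61.7% for Apex1 (with Pip4p1, listed in the table under its older name Tmem55b), 35.7% for Mpg (with Nprl3), 29.5% for Alkbh2 (with Usp30), 25.1% for Lig3 (with Rffl) and 10.6% for Ogg1 (with Camk1), and 0 for Mgmt, Ung and Xrcc1. The library kit keeps strand, but whether the reads were counted by strand is not given in the sources used here. Among protein-coding genes, the median log2 level was 7.86 for the 3174 genes with over 0 and up to 10% of exon bases under opposite exons, 5.56 for the 111 genes with over 50 and up to 75%, and 1.28 for the 56 genes with over 75%. The part of this overlap in the levels was not tested. Divided by unshared exon bases alone, a choice made after the data were seen, the log2 level of Apex1 rose from 6.44 to 7.82 per kilobase and took the top place, and that of Mpg went from 4.96 to 5.60, close to the 5.73 of Polb. The span from the highest to the lowest of the 10 was then 17.2-fold, from Apex1 to Ung. This division assumes that reads in shared exon bases were not counted, which is not known. Where such reads were counted, it sets the levels of the overlapping genes too high.

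Levels of pairs of genes were also compared within each library, over all exon bases first. The difference between Mpg, the first step for alkylated purines, and Polb, the gap-filling step, came to -0.56, -0.82 and -0.88 in the WT tumors and to -0.48, -0.87 and -0.89 in the KO tumors on the log2 scale per kilobase, so Mpg was below Polb in 6 of 6 libraries. Xrcc1 was below Lig3 in 6 of 6, the difference running from -1.58 to -1.13. Mgmt was above Mpg in 6 of 6, but by amounts from 0.15 to 1.56. Ung minus Ogg1 ranged from -1.98 to -0.11. Alkbh2 minus Alkbh3 ranged from -1.02 to 0.87 and was above 0 in 4 of 6, the widest of these 5 differences. WT and KO overlapped in each of the 5. By unshared exon bases, Xrcc1 below Lig3 and Ung below Ogg1 still held in 6 of 6, while Mgmt was above Mpg in 3 of 6 and Mpg below Polb in 4 of 6, and Alkbh2 was above Alkbh3 in 5 of 6.

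For each gene the most similar pattern was sought among 61 genes, the other 9 of the 10 and those of the repair, activation and proliferation lists, by the root mean square difference of centred log2 values over the 6 libraries. The closest matches were Tdp1 for Lig3 (0.077), Alkbh1 for Alkbh3 (0.090) and Parp2 for Xrcc1 (0.099). Parp2 encodes a sensor of strand breaks, and Tdp1 an enzyme that clears topoisomerase I remnants from DNA ends. Relative to each gene's own spread, the match left 41.4% for Alkbh3, 43.6% for Xrcc1, 44.4% for Ogg1 with Mbd4 and 48.8% for Alkbh2 with Rfc4. It left 54.0% for Lig3, 57.5% for Ung with Nthl1, 58.3% for Polb with Aptx, 72.1% for Apex1 with Neil1 and 77.8% for Mpg with Msh6. It left 88.6% for Mgmt with Rfc1, so no listed gene lay close to Mgmt by this measure. The measure is not scaled, so it counts differences in the size of swings as well as in their pattern. With 6 libraries and 61 candidates these are descriptions only.

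The rest of these pathways was read in the same fit. Of 40 further repair genes, all tested, 23 had a higher and 17 a lower mean in KO, and limma gave 0 with an adjusted p under 0.05 and 0 with an unadjusted p under 0.05. Their median log2 fold change was 0.027. Alkbh1 had a log2 fold change of 0.064.

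Of the 8 other glycosylases, 4 had a higher and 4 a lower mean in KO, from -0.27 for Nthl1, a glycosylase of oxidised pyrimidines, to 0.28 for Neil3, which is found mainly in dividing cells. The 9 genes of strand break sensing, end cleaning and short-patch repair had 6 higher and 3 lower means in KO, the lowest log2 fold change being -0.033 for Aplf.

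The 14 long-patch genes split into 7 higher and 7 lower, from 0.21 for Pold2, a subunit of DNA polymerase delta, to -0.91 for Fen1, the flap endonuclease. Fen1 measured 2.92, 2.90 and 2.12 in the WT tumors and 2.19, 1.94 and 1.07 in the KO tumors, with the KO tumors on the low side of an overlapping range (standard error 0.49, limma's adjusted p = 0.999). Its log2 values were low throughout, and 84.2% of its exon bases lie under exons of the opposite strand, mostly those of Gm10143, which was itself between 0.58 and 2.97. The part of this overlap in the Fen1 values was not tested. The 8 mismatch repair genes, whose products act on mispairs that alkylated guanine leaves, ran from -0.64 for Exo1 to 0.33 for Pms1, with 5 higher and 3 lower.

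**Figure D5:**
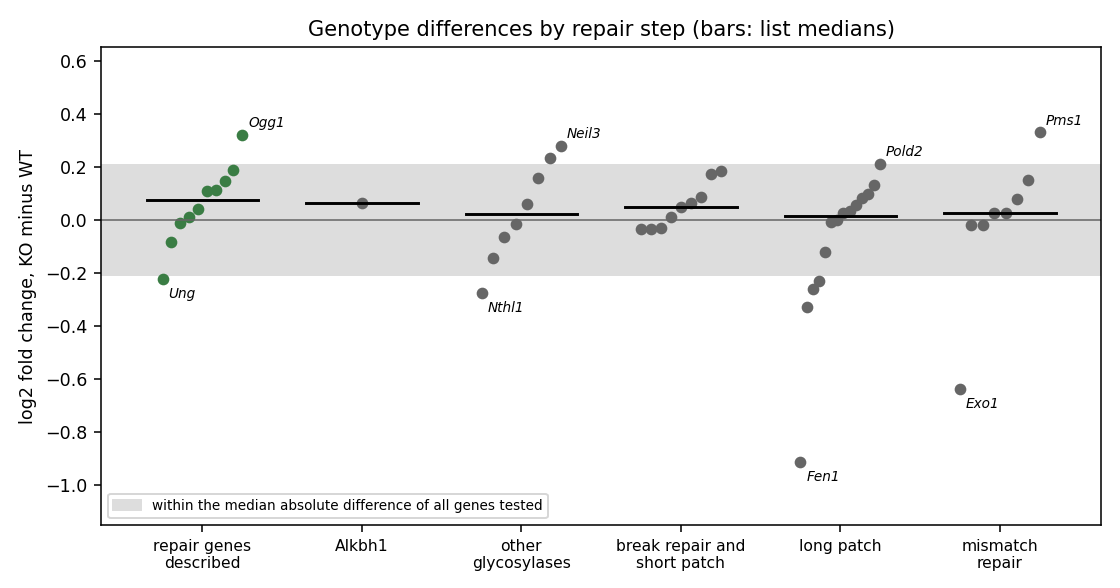
Log2 fold change, KO minus WT (y axis), of the 10 repair genes (green) and of the 40 further repair genes by step (grey), 1 point a gene, with list medians as bars, the extremes of a list named where past 0.2, and a grey band for the median absolute value of all genes tested, 0.21. Fen1 (-0.91) and Exo1 (-0.64) lie farthest from 0.

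The P450 enzymes that activate diethylnitrosamine had lower means in KO, with groups that overlapped and adjusted p-values far above the threshold. Cyp2e1, which also activates carbon tetrachloride, measured 14.5, 13.7 and 13.9 in the WT tumors and 12.5, 13.1 and 13.8 in the KO tumors, a log2 fold change of -0.89 (standard error 0.37, limma's unadjusted p = 0.042, adjusted p = 0.999) with groups that overlapped. Cyp2a5 measured 14.9, 12.8 and 14.7 in the WT tumors and 12.8, 14.0 and 11.2 in the KO tumors, a log2 fold change of -1.48 (standard error 0.76, limma's adjusted p = 0.999). These are levels at 22 weeks, long after the injection on day 14. The 10 proliferation genes had summed levels, again as the log2 of the sum, of 10.8 to 11.9 in WT and 11.5 to 11.8 in KO, with WT replicate 1 lowest, and 0 of 10 had an unadjusted p under 0.05 by limma. Their log2 fold changes ran from -0.26 for Birc5 to 0.48 for Bub1, with 7 higher and 3 lower means in KO and a median of 0.23. Mki67, the gene of Ki67, had 0.22 (standard error 0.29). The paper reports KO liver tumors as less proliferative by Ki67 staining, which measures protein. The tumors it sequenced were of the same size. The link between the staining and these RNA levels was not tested.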

How the data were processed

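RNA from 3 WT and 3 Top1mt -/- mouse liver tumors was compared, and the labels gave each sample's genotype and replicate number. The authors deposited log2 expression values by gene symbol. The labels' processing notes list Trimmomatic 0.36, STAR 2.5.1, Subread, DESeq2 and GRCm38 as the submitters' tools, while the paper names BWA and a build called Mm 8 as aligner and genome. Of the table's symbols 99.1% are in GENCODE M21, whose GRCm38 positions are given here. The log2 transform is not named, and values go down to -2.24, so if low values were drawn together, as regularized transforms do, folds of weak genes are understated. Counts, and thus depth, cannot be had from it. The table has 3 unnamed columns holding leftover cells, not used.

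WT and KO were compared gene by gene in limma 3.58.1 under R 4.3.3 (mean-variance trend, Benjamini-Hochberg adjustment, threshold 0.05) over genes outside the lowest 25% by mean level. The authors' test was DESeq2 on counts, which log2 values do not allow. The procedure was tested on simulated data. The mice were littermates from several litters, but which litter or mouse each tumor came from is not given in the sources used here, so p-values measure the spread between these tumors.

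The 10 genes, the other lists and the pairs were chosen with earlier results of these data known. Further genes named are the extremes of each repair list, those of these lists at an unadjusted p under 0.05, and the gene nearest in pattern to each of the 10. The cell type markers, Gm42418 and Lars2 were singled out after their values were seen, as were Gm10143 and the genes that overlap the 10. Some listed genes are not reported here. Levels per kilobase used the union of a gene's exons in GENCODE M21. The alternatives were no trend, quantile normalization, no filter, a block for replicate number, removal of each library in turn, a filter at the median, and, added after seeing the data, WT replicate 2 and KO replicate 1 left out together and unshared exon bases for levels per kilobase.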

Additional observations from a re-analysis of the deposited data

How the results depend on the processing

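The count of repair genes past an adjusted p of 0.05 by limma was 0 under all 12 alternatives, as was the count at an unadjusted p under 0.05. The smallest unadjusted p among the 10 genes was 0.075, for Alkbh2 without KO replicate 2, and the smallest adjusted p under any alternative was 0.89. Over all genes tested, 4 passed with no filter on low values, and 0 to 1 with one library left out. The median log2 fold change of the 10 genes ran from -0.020 to 0.15 with one library left out, the low end being without WT replicate 1, and was 0.093 with quantile normalization. From 0 to 2 of the 10 genes had groups that did not overlap in these 6 fits, where 15.9% to 21.5% of all genes tested did not.

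Small differences changed sign with single libraries, in 16 of 60 fits of a gene with one library left out, and in 20 of 120 fits over all alternatives. The sign held for 1 of the 10 genes, Ogg1 (0.042 to 0.48), when one library was left out. The ranges of the log2 fold change were -0.056 to 0.49 for Mgmt, -0.0017 to 0.19 for Mpg, -0.11 to 0.60 for Alkbh2, -0.17 to 0.14 for Alkbh3, -0.52 to 0.057 for Ung, -0.12 to 0.21 for Apex1, -0.17 to 0.14 for Xrcc1, -0.10 to 0.22 for Polb and -0.16 to 0.014 for Lig3. Alkbh3 was 0.0014 with quantile normalization. With WT replicate 2 and KO replicate 1 both left out, Mgmt was -0.036, Alkbh3 0.21 and Ung 0.14. The causes were not tested.

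With the replicate number as a block, the median stayed at 0.074 and 0 genes passed, of the 10 or of all tested. The deviations of libraries with a shared number correlated at -0.12, -0.076 and 0.052, and the main fit did not treat these libraries as pairs. With 3 tumors a group, a 2-fold change lay inside the 95% interval of 3 of the 10 genes, and read depth is unknown.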
